A study of Homo sapiens with 6 samples.

Results

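The genes described here act in the lysosome and in autophagy. They are the 47 rows, of 20036 in the deposited expression table, whose Ensembl identifier maps to a symbol on a list of such genes. The rule uses no measured value. The list itself was chosen with earlier results of these data known, so shares among the members are descriptive only. The list holds 13 lysosomal hydrolases, 9 genes for lysosomal membrane proteins, sterol export and the proton pump (V-ATPase), 3 transcription factors of the TFEB family, 18 genes of the autophagy core machinery and 4 autophagy receptors.

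RNA was sequenced from MV411 cells, a monocytic line from human acute myeloid leukaemia, in a comparison of 2 treatments. There were 3 libraries of cells given corilagin, an ellagitannin (a plant polyphenol), for 48 h and 3 libraries of cells given DMSO, the usual solvent for such compounds, for 48 h. All 6 libraries are labelled wild type and come from this single line, and the sources used here do not state at which dose corilagin was used. The labels do not say whether libraries of a group came from separate cultures, so a p-value reflects only how far these libraries spread, and that spread may be technical.

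Lysosomes are acidic organelles in which hydrolases digest proteins, lipids and sugars, and the V-ATPase pumps in the protons those enzymes need. Macroautophagy brings cytoplasm to them: a kinase complex and a lipid kinase complex start a membrane, a pair of ubiquitin-like conjugation systems attaches proteins of the ATG8 family (LC3 and GABARAP proteins) to it, and receptors tie cargo to the ATG8 proteins. TFEB, TFE3 and MITF bind E-box elements of the CLEAR type (coordinated lysosomal expression and regulation) in promoters of many of these genes. Their activity depends largely on phosphorylation by mTORC1, which holds them in the cytoplasm, and the amount of mRNA does not measure it.

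Library totals inferred from the table were 17776956 to 21640689 fragments. Replicate 3 of DMSO stood apart from the other DMSO libraries in a way that followed GC content. Among the genes in the lowest eighth of transcript GC (31.3 to 39.2%), the median deviation from the gene mean was 0.21 to 0.261 log2 units in the corilagin libraries, against -0.499 and -0.428 in DMSO 1 and 2 and 0.238 in DMSO 3. GC content thus moves with treatment against DMSO 1 and 2. Results that turn on this are given with up to 2 further values: from a fit after each library's trend with GC content was removed, which also takes out any true difference that follows GC, and from a fit against DMSO 3 alone. Markers of the line were present in both groups, with CD33 at 21.2 to 25.0 FPKM and FLT3 at 186 FPKM or more. They were not all steady: of the 10 listed, all tested, 3 were called higher and 2 lower. Their log2 differences ran from -0.81 to 0.69. Over all tested genes, 11.9% were higher and 13.5% lower. Of 10 markers of maturing monocytes and macrophages, 4 were tested. ITGAX and CD86 rose, while CSF1R (-0.35) and FCGR1A (-0.12) lay below DMSO in every corilagin library without passing the threshold, and both were called lower with the GC trend removed. The list summed to 52.68 to 56.64 FPKM in corilagin and 47.07 to 50.45 FPKM in DMSO libraries. MRC1 was listed at 0 in every library and CD14, CD68 and CD163 at 0.34 FPKM or less. Whether markers share exon bases with other genes was not checked, so these values need not show absence. The part of maturation in the results was not tested. In a bulk sample, fewer cells of a type and less RNA per cell cannot be told apart.

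The CLEAR element is the sequence feature most closely tied to this gene set, so the promoters that hold it are shown first. Because it was picked for that tie, a higher share among the members does not test the tie. Promoter sequences of RefSeq (GRCh38.p14, from 250 bases before to 50 bases after a start) were matched for 39 of the 47 members, as 53 promoters. The palindrome TCACGTGA, searched on both strands, was in a promoter of 6 members (15.4% of 39 genes). Of all 27305 genes in the RefSeq promoter set, 321 held it (1.18%). Per single promoter, 11.3% of the 53 held it, against 0.98% of all 35116. The related letters GTCACGTG, also on both strands and able to overlap the palindrome, were in 8 members (20.5%), which include those 6, against 2.93% of all genes, or in 15.1% of the members' promoters, against 2.4% of all promoters. In the lines below the capitals mark the motif, and each sequence runs 5′ to 3′ on the strand of its gene. The windows are MCOLN1 at chr19:7522566-7522605 (plus strand), LAMP1 at chr13:113297194-113297233 (plus), GAA at chr17:80101533-80101572 (plus), CTSA at chr20:45891293-45891332 (plus), ATP6V0D1 at chr16:67481194-67481233 (minus), ATG3 at chr3:112561940-112561969 (minus), CTSD at chr11:1763951-1763990 (minus) and ATG14 at chr14:55411831-55411867 (minus).
MCOLN1: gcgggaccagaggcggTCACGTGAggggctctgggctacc
LAMP1: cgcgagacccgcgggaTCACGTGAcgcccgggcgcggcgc
GAA: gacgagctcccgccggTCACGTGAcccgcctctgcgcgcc
CTSA: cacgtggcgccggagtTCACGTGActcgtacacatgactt
ATP6V0D1: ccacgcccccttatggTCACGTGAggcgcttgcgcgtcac
ATG3: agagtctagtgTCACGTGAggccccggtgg
CTSD: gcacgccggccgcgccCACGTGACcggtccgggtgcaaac
ATG14: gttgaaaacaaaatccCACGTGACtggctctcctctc

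The 6 genes with the palindrome did not pass the threshold in the fit to the values as deposited. MCOLN1 had a log2 difference of 0.09, LAMP1 of -0.10, GAA of -0.36, CTSA of -0.26, ATP6V0D1 of -0.02 and ATG3 of 0.04. CTSD, which holds the GTCACGTG letters, had -0.30 and did not pass the threshold, and ATG14, which holds them as well, rose. WIPI1 and MAP1LC3B, the members with the smallest adjusted p, held neither set of letters in these windows. Their 250 bases before the start are shown because both genes rose, WIPI1 from chr17:68457497-68457746 (minus strand) and MAP1LC3B from chr16:87392086-87392335 (plus strand), both on GRCh38.p14 and with no motif marked. A match or its absence in a window says nothing of whether a factor binds there.
WIPI1: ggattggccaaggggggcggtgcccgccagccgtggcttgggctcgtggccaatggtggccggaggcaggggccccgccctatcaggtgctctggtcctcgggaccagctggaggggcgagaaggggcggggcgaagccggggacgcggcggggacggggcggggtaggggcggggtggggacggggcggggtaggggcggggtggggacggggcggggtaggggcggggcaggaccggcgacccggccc
MAP1LC3B: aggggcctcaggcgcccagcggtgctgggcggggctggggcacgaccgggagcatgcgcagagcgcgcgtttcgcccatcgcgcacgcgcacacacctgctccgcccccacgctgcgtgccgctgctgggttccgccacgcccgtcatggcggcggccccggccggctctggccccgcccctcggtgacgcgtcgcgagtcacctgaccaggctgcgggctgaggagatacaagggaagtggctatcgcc

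Of the 47 members, 44 had a mean of at least 1 FPKM and entered the test. FPKM is a fragment count scaled to gene length and library size, so levels can be set side by side between genes. The others were CTSL (cathepsin L), listed at 0 in all libraries, HEXA (a subunit of beta-hexosaminidase), at 0.748 FPKM in corilagin and 0.752 FPKM in DMSO libraries, and GABARAP, at 0.202 FPKM in corilagin and 0.301 FPKM in DMSO libraries, from 5 to 14 fragments per library. In GENCODE 29, 55.7% of the exonic bases of GABARAP and 16.3% of those of HEXA are shared with other genes, while CTSL shares 0%, and the sources used here do not state how the authors' counting treated shared bases.

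Among the 44, 11 rose and 3 fell with corilagin (limma on log2(FPKM + 1), Benjamini-Hochberg adjusted p under 0.05 over 9868 genes). That is 25.0% higher and 6.82% lower, against 11.9% and 13.5% of all tested genes, and the median log2 difference was 0.06, against 0.035 over all tested genes. All 3 corilagin libraries lay above all 3 DMSO libraries in 16 members (36.4%), against 25.0% of all genes, and below them in 6 (13.6%), against 23.3%. With the GC trend removed, 13 members (29.5%) were higher and 6 (13.6%) lower, against 21.8% and 23.2% of all genes. In that fit 9 of the 11 rises and all 3 falls were called again. Over all genes, 943 of 1171 rises and 1216 of 1331 falls were. Called higher both times were 9 of the 44 members, against 9.56% of all tested genes, and called lower both times 3, against 12.3%. Against DMSO 3 alone, 18 were higher and 3 lower, against 19.4% and 18.6% of all genes, and that fit assumes that the lone library varies as the corilagin libraries do.

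Most of these calls were lost when 1 library other than DMSO 3 was left out. WIPI1 alone passed the threshold without each library in turn. The other 13 called members missed it without any one corilagin library, at adjusted p from 0.0571 to 0.163. Without DMSO 1, 5 of the 14 called members were still called, and without DMSO 2, 2 were. Without DMSO 3 all 14 were. In that fit 21 of the 44 tested members were higher and 18 of the 44 lower, near the 40.8% and 36.5% of all genes. After removal of the GC trend, 15 of the 19 called members passed the threshold without each library in turn, the exceptions being TFEB, ATG12, RB1CC1 and ATG13.

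**Figure D1:**
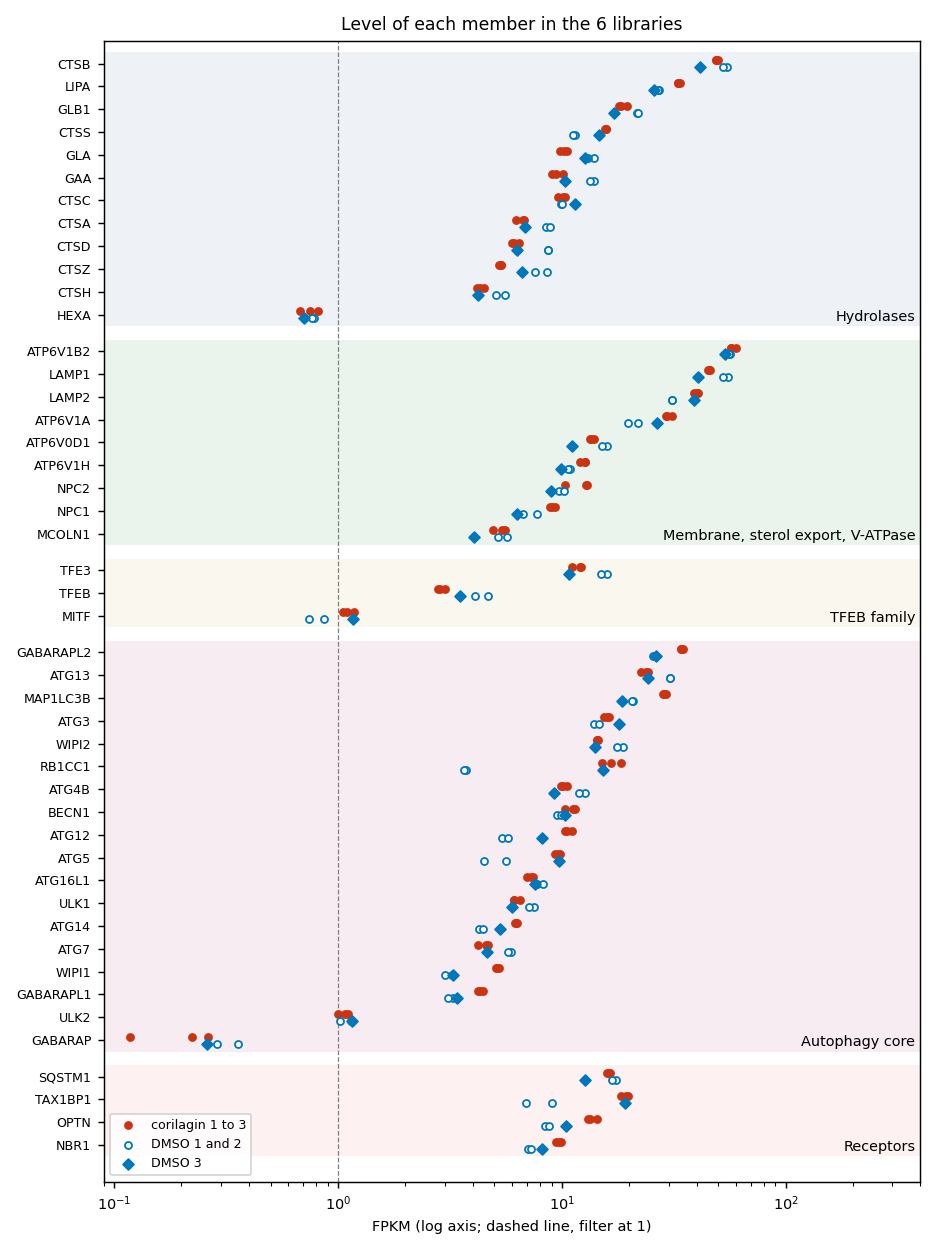
FPKM (horizontal log axis) of all members except CTSL, grouped by role, with red points for corilagin 1 to 3, open blue circles for DMSO 1 and 2 and a blue diamond for DMSO 3. Levels ran from 0.118 FPKM (GABARAP) to 59.8 FPKM (ATP6V1B2), and the DMSO 3 diamond lay nearer to the corilagin mean than to the mean of DMSO 1 and 2 in 29 of the 44 tested members.

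Of the TFEB family, TFEB fell. The gene (chr6:41683978-41736259 on GRCh38, minus strand) codes for the factor that gives the family its name. It was at 3.01, 2.87 and 2.81 FPKM in corilagin libraries, against 4.68, 4.09 and 3.50 FPKM in DMSO libraries, from 346 to 618 fragments per library. The groups did not overlap, and DMSO 3 was the DMSO library closest to the corilagin ones. The mean was 2.90 ± 0.101 FPKM in corilagin and 4.09 ± 0.589 FPKM in DMSO libraries (SD, n = 3 each), with a log2 difference of -0.38 ± 0.103 (SE; limma, adjusted p = 0.0376).

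TFE3 (chrX:49028726-49043486), a paralog that also activates lysosomal genes, was the most abundant of the 3. It lay at 12.2, 12.1 and 11.1 FPKM in corilagin libraries, against 15.9, 14.9 and 10.8 FPKM in DMSO libraries. The DMSO 3 value was below all corilagin values, and the difference did not pass the threshold (-0.20 ± 0.143, adjusted p = 0.298). MITF (chr3:69739435-69968337), best known as the melanocyte and mast cell member of the family, was near the filter at 1.10, 1.18 and 1.05 FPKM in corilagin libraries, against 0.871, 0.746 and 1.17 FPKM in DMSO libraries. These groups overlapped through DMSO 3 as well, and the difference of 0.14 did not pass the threshold (adjusted p = 0.279).

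TFEB was lower with the GC trend removed (-0.21, adjusted p = 0.0225) and did not pass the threshold against DMSO 3 alone (-0.21, adjusted p = 0.0746). Without any one corilagin library, or without DMSO 1 or DMSO 2, its adjusted p was 0.105 to 0.14. The summed level of the 3 factors was 15.0 to 16.3 FPKM in corilagin libraries, against 21.5 and 19.7 FPKM in DMSO 1 and 2 and 15.5 FPKM in DMSO 3.

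Of 11 tested hydrolases, LIPA rose and GLA and CTSZ fell, and the median log2 difference was -0.15. The shares of 9.09% higher and 18.2% lower lie near those of all tested genes (11.9% and 13.5%). The 13 hydrolase mRNAs summed to 170.7, 170.6 and 167.7 FPKM in corilagin libraries, against 185.0, 180.0 and 158.4 FPKM in DMSO libraries, so the DMSO libraries lay on both sides.

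GLA (chrX:101397803-101408012, minus strand) codes for alpha-galactosidase A, which removes terminal galactose from glycolipids and is deficient in Fabry disease. Its values were 9.84, 10.5 and 10.2 FPKM in corilagin libraries, against 13.9, 13.1 and 12.7 FPKM in DMSO libraries. DMSO 3 stood with the other DMSO libraries here, and the log2 difference was -0.35 ± 0.078 (adjusted p = 0.0226). CTSZ (chr20:58995185-59007247, minus strand), or cathepsin Z, is a carboxypeptidase of the papain type. It lay at 5.34, 5.34 and 5.24 FPKM in corilagin libraries, against 8.59, 7.58 and 6.64 FPKM in DMSO libraries. Its SD was 0.0613 FPKM in corilagin and 0.972 FPKM in DMSO libraries, the groups did not overlap, and the log2 difference was -0.44 ± 0.102 (adjusted p = 0.0249). Both falls were called again with the GC trend removed (GLA -0.32, CTSZ -0.27) and against DMSO 3 alone (GLA -0.30, CTSZ -0.28).

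LIPA (chr10:89213569-89414557, minus strand) codes for lysosomal acid lipase, which releases cholesterol from cholesteryl esters taken up with lipoproteins. It was at 33.6, 33.0 and 33.0 FPKM in corilagin libraries, against 27.1, 26.9 and 25.8 FPKM in DMSO libraries. The groups were well apart in every library, and the log2 difference was 0.31 ± 0.0698 (adjusted p = 0.023). It was also higher against DMSO 3 alone (0.35), but the difference was 0.09 (adjusted p = 0.497) with the GC trend removed. Without any one corilagin library, or without DMSO 1 or 2, the adjusted p of these 3 enzymes was 0.0656 to 0.115.

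The other cathepsins did not pass the threshold in the values as deposited. CTSB (cathepsin B), the most abundant hydrolase, had means of 49.3 ± 0.453 FPKM in corilagin and 49.7 ± 7.17 FPKM in DMSO libraries, and was higher against DMSO 3 alone (0.24, adjusted p = 0.00223). CTSS (cathepsin S), which trims the invariant chain of MHC class II, lay at 15.6 to 15.8 FPKM in corilagin libraries, against 11.4, 11.2 and 14.7 FPKM in DMSO libraries. Its groups did not overlap, yet the gap to DMSO 3 was small, and the log2 difference of 0.32 had an adjusted p of 0.0685. CTSA, CTSD, CTSH, GLB1 and GAA (cathepsins A, D and H, beta-galactosidase and the glycogen-digesting acid alpha-glucosidase) had log2 differences between -0.36 and -0.10. Each of these 5 was lower in all corilagin libraries than in DMSO 1 and 2 and lay within 0.11 log2 units of DMSO 3. CTSC, the activator of granule serine proteases, was lower with the GC trend removed (-0.49, adjusted p = 0.0123) and had -0.06 in the deposited values. In GENCODE 29, 52.7% of the exonic bases of CTSD and 28.5% of those of CTSA lie in other genes as well. For CTSD, 41.7% are shared with a gene on the same strand, and for CTSA 0.0%. How fragments from such same-strand bases were counted is not stated. No source used here says that strand was kept, so fragments of genes on the other strand may be counted with both.

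All 9 genes of the lysosomal membrane, sterol export and the proton pump were tested. NPC1 and ATP6V1A rose (22.2%, against 11.9% of all tested genes) and the other 7 did not pass the threshold. The median log2 difference of the 9 was 0.23. Their sum was 226.0, 220.4 and 231.4 FPKM in corilagin libraries, against 212.3, 208.7 and 200.2 FPKM in DMSO libraries. All corilagin sums lay above all DMSO sums, and DMSO 3 had the lowest sum.

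NPC1 (chr18:23506184-23586898, minus strand) is the membrane transporter that moves cholesterol out of the lysosome, and loss of it causes Niemann-Pick disease type C. It was at 9.09, 8.82 and 9.37 FPKM in corilagin libraries, against 7.72, 6.72 and 6.28 FPKM in DMSO libraries. DMSO 3 was the library farthest from the corilagin values. The log2 difference was 0.36 ± 0.0939 (adjusted p = 0.0348), with 0.47 against DMSO 3 alone and, without the GC trend, 0.41 (adjusted p = 0.00127). NPC2, the soluble partner that hands cholesterol to NPC1, had 12.9, 10.3 and 12.8 FPKM in corilagin libraries, against 9.74, 10.2 and 8.97 FPKM in DMSO libraries. The second corilagin library lay near the DMSO values, and the difference of 0.28 missed the threshold (adjusted p = 0.0899). It missed it with the GC trend removed (0.13, adjusted p = 0.359) and passed it against DMSO 3 alone (0.37).

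ATP6V1A (chr3:113747019-113812056, plus strand), the catalytic subunit of the V-ATPase, was at 29.4, 29.3 and 31.2 FPKM in corilagin libraries, against 19.8, 21.8 and 26.6 FPKM in DMSO libraries. DMSO 3 lay between the other DMSO libraries and the corilagin libraries. The log2 difference was 0.39 ± 0.115 (adjusted p = 0.0456) and 0.06 (adjusted p = 0.443) with the GC trend removed. Against DMSO 3 alone it was 0.16. ATP6V1H, a regulatory subunit, had 12.5 ± 0.313 FPKM in corilagin and 10.5 ± 0.496 FPKM in DMSO libraries, which missed the threshold (0.23, adjusted p = 0.0644) and passed it with the GC trend removed (0.23, adjusted p = 0.00616). ATP6V1B2 and ATP6V0D1, further subunits of the pump, had log2 differences of 0.07 and -0.02, and ATP6V0D1 was higher against DMSO 3 alone (0.28, adjusted p = 0.00459). Without any one corilagin library the adjusted p of NPC1 and ATP6V1A was 0.117 to 0.163. Without DMSO 2 it was 0.131 for NPC1 and 0.155 for ATP6V1A, and without DMSO 1 it was 0.131 for ATP6V1A.

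LAMP1 and LAMP2, the heavily glycosylated proteins that line the lysosomal membrane, went opposite ways relative to DMSO 1 and 2. LAMP1 was at 45.1, 45.6 and 46.0 FPKM in corilagin libraries, against 55.2, 52.4 and 40.4 FPKM in DMSO libraries. LAMP2 was at 40.3, 38.8 and 40.6 FPKM in corilagin libraries, against 31.1, 31.0 and 39.1 FPKM in DMSO libraries. In both genes DMSO 3 was apart from DMSO 1 and 2 and near or beyond the corilagin values, and neither difference passed the threshold (-0.10 and 0.25). Against DMSO 3 alone LAMP1 was higher (0.17, adjusted p = 0.0154), with the opposite sign, and LAMP2 had 0.03. Transcript GC was 55.2% for LAMP1 and 37.7% for LAMP2. With the GC trend removed LAMP1 had 0.04 and LAMP2 had -0.21, and neither passed the threshold. MCOLN1, the calcium and iron channel TRPML1, had 5.31 ± 0.317 FPKM in corilagin and 4.98 ± 0.859 FPKM in DMSO libraries, and it was higher with the GC trend removed (0.29, adjusted p = 0.00736) and against DMSO 3 alone (0.32).

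**Figure D2:**
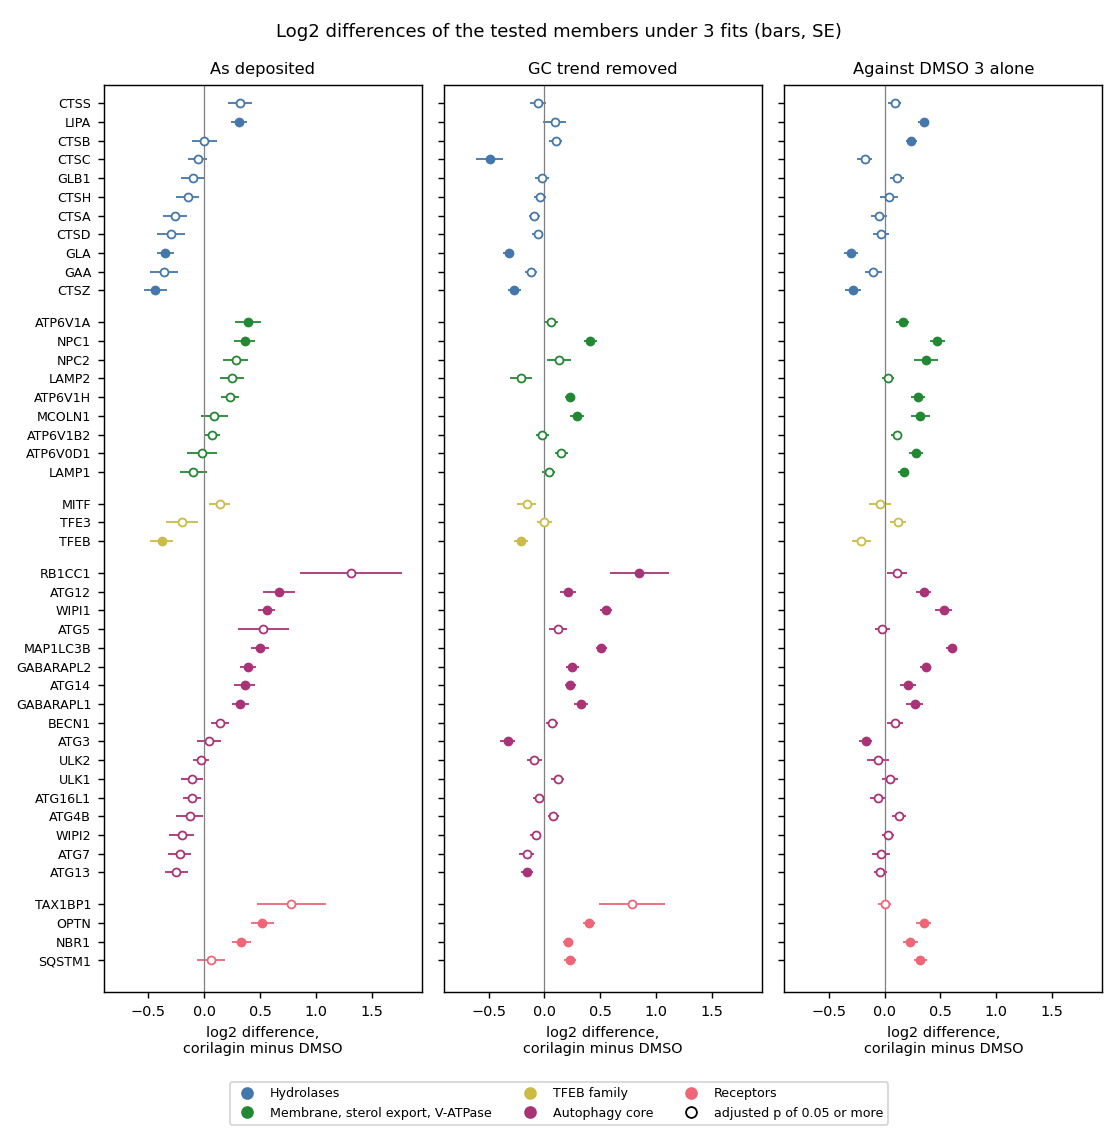
Log2 difference of corilagin minus DMSO (horizontal axis) with its SE for the 44 tested members under 3 fits, filled where the adjusted p was under 0.05. WIPI1, MAP1LC3B, GABARAPL1, GABARAPL2, ATG12, ATG14, OPTN, NBR1 and NPC1 were higher and GLA and CTSZ lower in all 3 panels, while the wide bars of RB1CC1 and TAX1BP1 in the left panel shrink against DMSO 3 alone.

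In the autophagy core, 6 of 17 tested genes rose (35.3%) and the other 11 did not pass the threshold. Over all tested genes, 11.9% were higher and 13.5% lower. The median log2 difference of the 17 was 0.14. The 6 were 3 ATG8 family genes (MAP1LC3B, GABARAPL2 and GABARAPL1), WIPI1, ATG14 and ATG12. All 6 were called again with the GC trend removed and against DMSO 3 alone. The core genes summed to 207.7, 211.2 and 210.9 FPKM in corilagin libraries, against 179.3, 179.3 and 185.6 FPKM in DMSO libraries.

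The ATG8 genes code for the proteins that are joined to lipid on the growing membrane. MAP1LC3B (chr16:87383995-87404779, plus strand), whose product LC3B is the usual marker of autophagosomes, was at 28.5, 29.2 and 28.2 FPKM in corilagin libraries, against 20.9, 20.7 and 18.5 FPKM in DMSO libraries. The groups were far apart, and DMSO 3 was the lowest of all. The mean was 1.43-fold higher, and the log2 difference was 0.50 ± 0.0794 (adjusted p = 0.00894). GABARAPL2 (chr16:75566351-75577881, plus strand) was at 34.0, 34.7 and 34.2 FPKM in corilagin libraries, against 26.0, 25.6 and 26.4 FPKM in DMSO libraries. The 3 DMSO libraries were close together for this gene, and the mean was 1.32-fold higher (log2 difference 0.39 ± 0.0686, adjusted p = 0.0123). GABARAPL1 (chr12:10212458-10223130, plus strand) was lower in level, at 4.31, 4.44 and 4.22 FPKM in corilagin libraries, against 3.28, 3.10 and 3.41 FPKM in DMSO libraries. It too showed no overlap and was 1.32-fold higher (log2 difference 0.32 ± 0.0761, adjusted p = 0.027). Without any one corilagin library the adjusted p of the 3 genes was 0.0571 to 0.121. Without DMSO 2 it was 0.0701 for GABARAPL2 and 0.118 for GABARAPL1, and without DMSO 1 it was 0.0786 for GABARAPL1.

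WIPI1 (chr17:68420948-68457513, minus strand) binds the phosphoinositide that marks sites where autophagosomes form. It was at 5.27, 5.08 and 5.14 FPKM in corilagin libraries, against 3.02, 3.22 and 3.27 FPKM in DMSO libraries, from 198 to 388 fragments per library. No library strayed from its group, and the mean was 1.63-fold higher at 5.16 ± 0.0978 FPKM in corilagin and 3.17 ± 0.134 FPKM in DMSO libraries (SD, n = 3 each). The log2 difference was 0.56 ± 0.0752 (adjusted p = 0.00524), 0.55 with the GC trend removed and 0.53 against DMSO 3 alone. Its paralog WIPI2, which recruits ATG16L1 to the membrane, did not pass the threshold, at 14.3 to 14.5 FPKM in corilagin libraries, against 18.8, 17.6 and 14.1 FPKM in DMSO libraries. Of the exonic bases of WIPI1, 28.1% are shared with other genes in GENCODE 29.

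ATG14 (chr14:55366392-55411858, minus strand) directs the lipid kinase complex of BECN1 to autophagy. It was at 6.24, 6.32 and 6.21 FPKM in corilagin libraries, against 4.28, 4.43 and 5.28 FPKM in DMSO libraries. DMSO 3 was the highest of the DMSO libraries and still below every corilagin one, and the log2 difference was 0.36 ± 0.0932 (adjusted p = 0.0329). BECN1, the scaffold of the same complex, had 11.0 ± 0.63 FPKM in corilagin and 9.91 ± 0.407 FPKM in DMSO libraries and did not pass the threshold (0.14, adjusted p = 0.22). ATG12 (chr5:115828200-115841858, minus strand) is the ubiquitin-like protein that is joined to ATG5. It was at 10.3, 10.5 and 11.1 FPKM in corilagin libraries, against 5.39, 5.74 and 8.12 FPKM in DMSO libraries. Again the groups did not overlap and DMSO 3 was nearest, and the log2 difference was 0.67 ± 0.141 (adjusted p = 0.0195) in the deposited values and 0.21 (adjusted p = 0.0404) with the GC trend removed. Without any one corilagin library the adjusted p was 0.123 to 0.126 for ATG14 and 0.0829 to 0.0936 for ATG12. Without DMSO 1 or DMSO 2 it was 0.105 and 0.13 for ATG14 and 0.0592 and 0.0837 for ATG12.

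The rest of the conjugation machinery did not pass the threshold. ATG7, the enzyme that activates ATG12 and the ATG8 proteins, had 4.50 ± 0.245 FPKM in corilagin and 5.43 ± 0.71 FPKM in DMSO libraries. ATG16L1, the partner of the ATG12 and ATG5 conjugate, had 7.23 ± 0.201 FPKM in corilagin and 7.87 ± 0.325 FPKM in DMSO libraries. ATG4B, the protease that primes ATG8 proteins, had 10.2 ± 0.296 FPKM in corilagin and 11.3 ± 1.84 FPKM in DMSO libraries. ATG3, which transfers ATG8 proteins to lipid, had 15.8 ± 0.446 FPKM in corilagin and 15.5 ± 2.17 FPKM in DMSO libraries. Its log2 difference was 0.04 in the deposited values, but it was lower with the GC trend removed (-0.33, adjusted p = 0.00654) and against DMSO 3 alone (-0.17, adjusted p = 0.039).

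The kinase complex that starts autophagy holds 4 of the members. ULK1 and ULK2, its kinases, had log2 differences of -0.11 and -0.03 and did not pass the threshold. ATG13, an adaptor of the complex, had 24.4, 23.9 and 22.7 FPKM in corilagin libraries, against 30.6, 30.6 and 24.4 FPKM in DMSO libraries, a difference that missed the threshold (-0.25, adjusted p = 0.107). It was called lower with the GC trend removed (-0.16, adjusted p = 0.0419), and not without DMSO 1, DMSO 2 or any one corilagin library in that fit (adjusted p from 0.0862 to 0.147). RB1CC1 (FIP200), the scaffold, was at 15.1, 16.6 and 18.3 FPKM in corilagin libraries, against 3.74, 3.65 and 15.3 FPKM in DMSO libraries. DMSO 3 was inside the corilagin range, and the log2 difference of 1.31 ± 0.456 missed the threshold (adjusted p = 0.0696). With the GC trend removed RB1CC1 was called higher (0.85, adjusted p = 0.0326), though not without DMSO 1, DMSO 2 or any one corilagin library in that fit (adjusted p from 0.0711 to 0.109). Without DMSO 3 the difference was 1.91, and against DMSO 3 alone it was 0.11 (adjusted p = 0.35). ATG5, which accepts ATG12, had the same pattern of libraries, at 9.59, 9.82 and 9.32 FPKM in corilagin libraries, against 4.51, 5.64 and 9.73 FPKM in DMSO libraries (0.53 ± 0.226, adjusted p = 0.111).

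**Figure D3:**
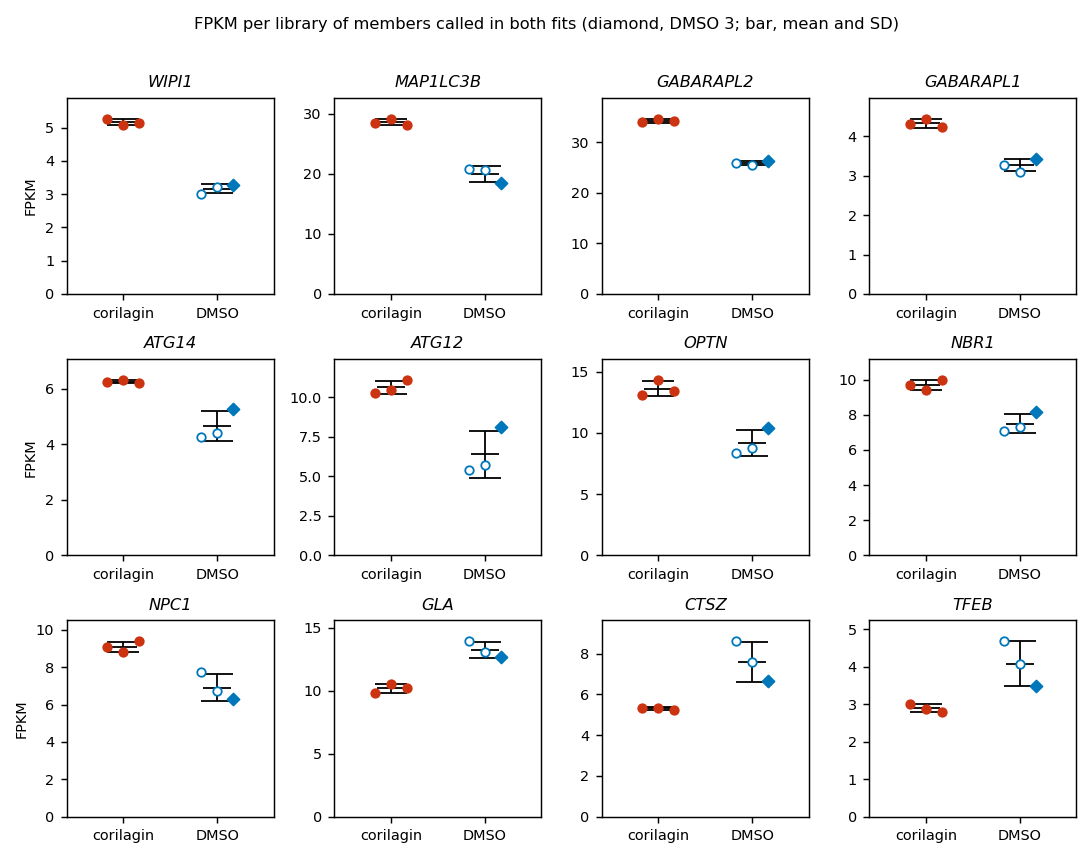
FPKM per library (vertical axes start at 0) of the 12 members called in the deposited values and again with the GC trend removed, with the mean and SD as bars, open circles for DMSO 1 and 2 and a diamond for DMSO 3. In all 12 panels the 3 corilagin points lie on one side of the 3 DMSO points, and in all but MAP1LC3B and NPC1 the diamond is the DMSO point nearest to them. These members were picked by their calls, so the separation is no further result.

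Of the 4 receptors, OPTN and NBR1 rose and the other 2 did not pass the threshold, while 11.9% of all tested genes were higher and 13.5% lower. The median log2 difference of the 4 receptors was 0.43 in the deposited values, 0.31 with the GC trend removed and 0.27 against DMSO 3 alone. Their sum was 57.4, 59.9 and 58.8 FPKM in corilagin libraries, against 39.9, 41.9 and 50.4 FPKM in DMSO libraries. OPTN (chr10:13099449-13138308, plus strand), or optineurin, links ubiquitin-tagged mitochondria and bacteria to ATG8 proteins. It was at 13.1, 14.3 and 13.4 FPKM in corilagin libraries, against 8.38, 8.80 and 10.4 FPKM in DMSO libraries. The lowest corilagin library was above the highest DMSO library, the mean was 1.48-fold higher, and the log2 difference was 0.52 ± 0.0997 (adjusted p = 0.0146). NBR1 (chr17:43170481-43211689, plus strand), a receptor for ubiquitin-tagged aggregates and peroxisomes, was at 9.70, 9.38 and 9.97 FPKM in corilagin libraries, against 7.05, 7.31 and 8.13 FPKM in DMSO libraries. Its groups were separate too, with a log2 difference of 0.33 ± 0.0849 (adjusted p = 0.0324). Both were higher with the GC trend removed (OPTN 0.40, NBR1 0.21) and against DMSO 3 alone (OPTN 0.35, NBR1 0.23). Without any one corilagin library the adjusted p was 0.0714 to 0.0815 for OPTN and 0.114 to 0.135 for NBR1. Without DMSO 2 it was 0.0703 and 0.128, and without DMSO 1 it was 0.105 for NBR1.

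SQSTM1 (p62), the receptor most often used as a marker of autophagic flux, was at 16.2, 16.4 and 16.0 FPKM in corilagin libraries, against 17.5, 16.7 and 12.7 FPKM in DMSO libraries. DMSO 3 was lower than all other libraries, and the difference of 0.06 did not pass the threshold (adjusted p = 0.719). It was higher with the GC trend removed (0.23, adjusted p = 0.00782) and against DMSO 3 alone (0.32). TAX1BP1, a receptor with several ATG8 binding sites, was at 18.4, 19.8 and 19.4 FPKM in corilagin libraries, against 6.93, 9.09 and 19.2 FPKM in DMSO libraries. As with RB1CC1, DMSO 3 lay inside the corilagin range, so the log2 difference of 0.78 ± 0.311 missed the threshold (adjusted p = 0.0939), was 1.17 without DMSO 3 and was 0.00 against DMSO 3 alone. Removal of the GC trend left it at 0.78 (adjusted p = 0.061).

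How far DMSO 3 lay from the other DMSO libraries followed GC content in the members as in all genes. Across the 44 members, which share the same libraries, transcript GC had a Spearman correlation of -0.884 with the log2 difference of DMSO 3 from the mean of DMSO 1 and 2, against -0.843 across all genes with a GC value. The correlation of GC with corilagin minus DMSO 3 was -0.132 in the members and -0.00728 in all genes. DMSO 3 was nearer to the corilagin mean than to DMSO 1 and 2 in 65.9% of members and 68.1% of all tested genes. TAX1BP1 stood off this trend, with a DMSO 3 difference of 1.17 at a GC content of 48.0%. RB1CC1 did as well, with 1.8 at 37.6% GC. Members of like GC had 0.47 (ATG12, 37.5%) and 0.32 (LAMP2, 37.7%).

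**Figure D4:**
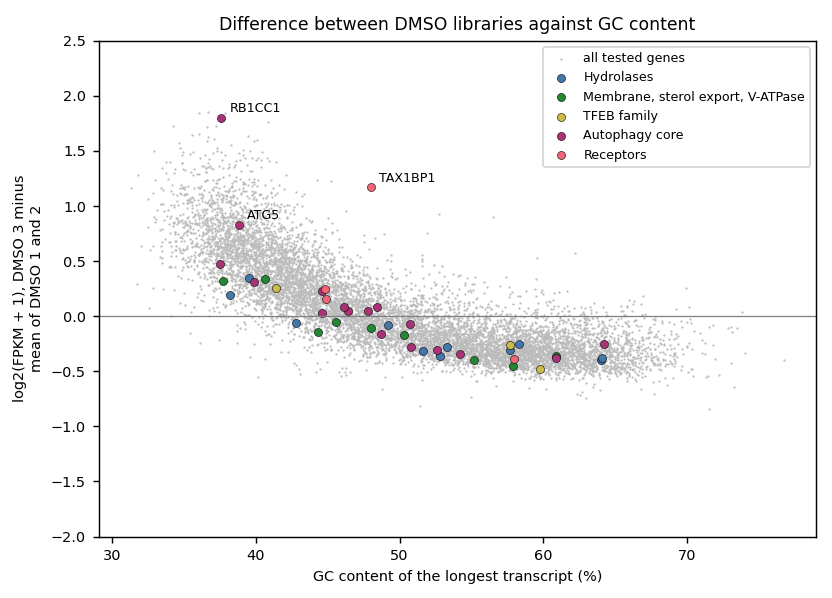
Log2 difference of DMSO 3 from the mean of DMSO 1 and 2 (vertical axis) against the GC content of the longest transcript in percent (horizontal axis), with all tested genes in grey and the members coloured by role. RB1CC1 (37.6% GC) and ATG5 (38.8%) are the highest of the low-GC members, and TAX1BP1 (48.0%) lies above the grey cloud.

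Further genes of these pathways were described from lists made for comparison. The share of all tested genes was 11.9% higher and 13.5% lower throughout. Leaving out a library ended most calls: of the 22 genes named from these lists, 18 missed the threshold without any one corilagin library (adjusted p from 0.0512 to 0.169), the exceptions being DNASE2, FUCA1, SORT1 and VAMP8. Without DMSO 1, 10 of them missed it (0.0572 to 0.144), and without DMSO 2, 14 did (0.0543 to 0.173). With the GC trend removed 21 of the 22 were called in the same direction and 17 without each library in turn, the exceptions being NAGLU, LAMTOR4, FNIP2, ATG9A and ATP6AP2.

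Of 27 other tested hydrolases and activators, 7 rose (25.9%) and 5 fell (18.5%). DNASE2, the DNase of the lysosome, rose 2.63-fold, with 2.58, 2.47 and 3.38 FPKM in corilagin libraries, against 1.27, 0.962 and 0.968 FPKM in DMSO libraries. FUCA1, the lysosomal fucosidase, rose 1.66-fold, with 17.6, 16.4 and 17.8 FPKM in corilagin libraries, against 10.6, 10.4 and 10.1 FPKM in DMSO libraries. MAN2B1 (alpha-mannosidase) and NAGLU (a heparan sulphate glucosaminidase) fell, with log2 differences of -0.72 and -0.50. These 4 were called again with the GC trend removed. Against DMSO 3 alone the log2 differences were 0.94 (DNASE2), 0.71 (FUCA1), -0.44 (MAN2B1) and -0.39 (NAGLU). Groups without overlap were a condition for naming any gene of these lists, so the lack of overlap is no further result.

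Of 19 other membrane proteins, SCARB2 and LAPTM5 rose (0.47 and 0.46; 10.5% of the list) and ATP13A2 fell (-0.61; 5.26%), shares no higher than those of all genes. SCARB2 was not called against DMSO 3 alone (0.20, adjusted p = 0.0601). SCARB2 carries glucocerebrosidase to the lysosome, LAPTM5 is a lysosomal protein of blood cells and ATP13A2 exports polyamines. Of 12 other V-ATPase subunits and accessory proteins, 4 rose (33.3%) and the other 8 did not pass the threshold. The accessory protein ATP6AP2 (0.47, adjusted p = 0.0256) had 0.13 with the GC trend removed (adjusted p = 0.105), and the subunit ATP6V0A1 (0.36) had 0.44 (adjusted p = 0.000477). Of 9 genes for mannose 6-phosphate tagging and sorting, SORT1 and GNPTAB rose (22.2%). SORT1 (sortilin), a sorting receptor for lysosomal proteins, was at 2.18, 2.17 and 2.34 FPKM in corilagin libraries, against 0.63, 0.546 and 0.678 FPKM in DMSO libraries, a 3.61-fold higher mean. GNPTAB codes for the enzyme that adds the phosphate tag and was 1.80-fold higher, though DMSO 3 at 5.79 FPKM was nearer to the corilagin mean of 7.28 FPKM than to DMSO 1 and 2.

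Among 19 tested genes through which mTORC1, the Rag GTPases and folliculin control TFEB, 2 rose (10.5%) and 3 fell (15.8%), near the shares of all tested genes. FNIP1 and FNIP2, the partners of folliculin, rose 1.90-fold and 1.80-fold (log2 differences 0.86 and 0.50). LAMTOR2 and LAMTOR4, subunits of the Ragulator scaffold on the lysosome, fell (-0.71 and -0.38). LAMTOR2 was at 30.7, 34.1 and 32.8 FPKM in corilagin libraries, against 55.9, 62.2 and 45.0 FPKM in DMSO libraries. FNIP2 and LAMTOR4 did not pass the threshold against DMSO 3 alone (adjusted p = 0.0563 and 0.0636).

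Of 27 other core autophagy genes, 4 rose (14.8%) and 3 fell (11.1%), near the shares of all tested genes. TMEM41B, a lipid scramblase, and NRBF2, a subunit of the lipid kinase complex that holds ATG14, rose 1.73-fold and 1.54-fold. VAMP8, a SNARE of fusion with the lysosome, fell (-0.86), with 131, 131 and 135 FPKM in corilagin libraries, against 249, 259 and 218 FPKM in DMSO libraries. ATG9A, the scramblase of autophagic vesicles, fell (-0.38) and was not called against DMSO 3 alone (adjusted p = 0.127). In GENCODE 29, 38.8% of its exonic bases lie in another gene as well. Of 14 other receptors, 4 rose (28.6%) and 1 fell (7.14%). BNIP3L, a mitophagy receptor, had a log2 difference of 1.21, CALCOCO2 (NDP52) of 0.43, and the inner mitochondrial membrane receptor PHB2 fell (-0.67).

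**Figure D5:**
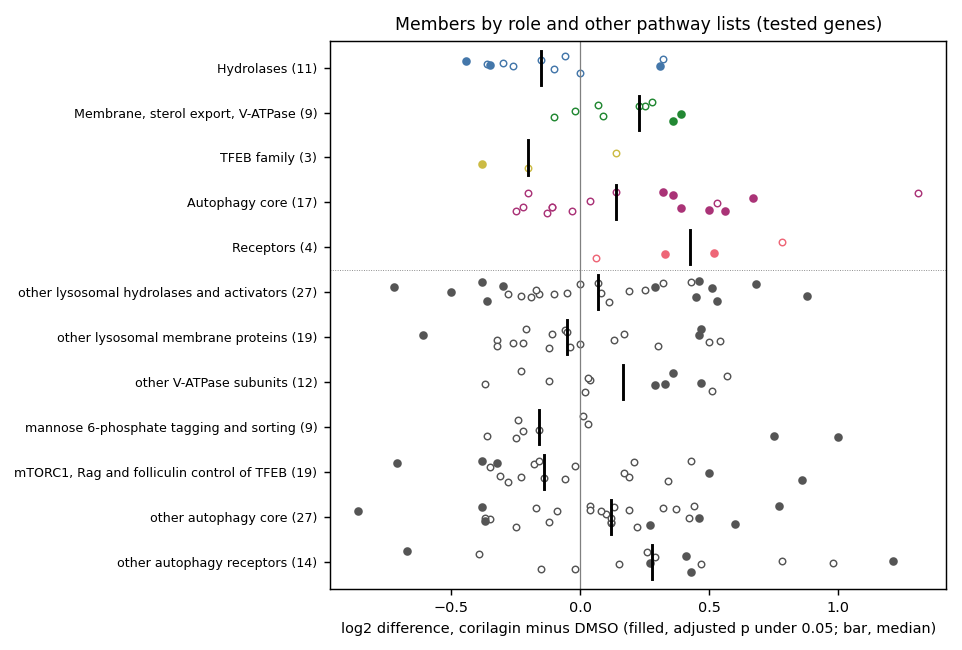
Log2 difference of corilagin minus DMSO (horizontal axis) for each tested gene of the 5 member groups and of 7 further lists, filled where the adjusted p was under 0.05, with the median of each list as a bar. Medians of the member groups ran from -0.20 (TFEB family) to 0.43 (receptors), and those of the other lists from -0.16 (mannose 6-phosphate tagging and sorting) to 0.28 (other receptors).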

How the data were processed

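The authors deposited 1 table of FPKM (fragments divided by gene length and library total) for 20036 Ensembl genes in 6 libraries of polyadenylated RNA, per the labels' protocols. Tools named in the submitters' processing notes were fastp 0.22.0, HISAT2 2.1.0 with GRCh38, HTSeq 0.9.1 and DESeq 1.38.3, with no settings or annotation release. Symbols came from a name table (20011 identifiers matched), and coordinates, GC content of the longest transcript and exon overlap from GENCODE 29 (GRCh38). The members and lists were chosen with earlier results of these data known.

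All 6 libraries entered a 2-sided limma fit (version 3.58.1, R 4.3.3, lmFit and trended eBayes) of log2(FPKM + 1). It covered the 9868 genes whose mean FPKM was 1 or more, and p was adjusted over them by Benjamini-Hochberg (threshold 0.05). Differences on that scale understate changes of genes near 1 FPKM. The members' sums and folds use FPKM itself. Per-library values were described for TFEB, TFE3 and MITF and for called members without overlap, up to 4 per role and direction. For members chosen in that way, the lack of overlap is no further result. From the other lists, up to 2 rises and 2 falls without overlap were named. Values per library of further members were chosen after they were seen.

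GC trends were removed with a natural spline (5 degrees of freedom) per library over 9859 genes. Fragments per gene were recovered from the whole-number steps of the deposited FPKM for 15921 genes (100.0% of values whole within 0.0001, which the search requires). They served for limma-voom and for the fragment ranges, and cover counting error only. No pair of libraries was identical. The fits were tested on simulated data.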

Additional observations from a re-analysis of the deposited data

How the results depend on the processing

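Leaving out a library gave 1 to 21 members higher and 0 to 18 lower, and over all genes 131 to 4030 higher and 176 to 3597 lower. With 0 members lower (limma, without any one library other than DMSO 3), 3 or 4 had an unadjusted p under 0.05 in that direction. The fit without DMSO 3 gives the upper end of each range. Leaving out a library after the GC trend was removed, an alternative added after seeing the data, gave 4 to 12 members lower, and 1419 to 3104 genes higher and 1624 to 3259 lower. Removal of the GC trend gave 6 members lower, as did removal of GC and length trends and the replicate block with the GC trend removed. Over all genes the 3 versions gave 2151, 2120 and 2153 higher and 2287, 2339 and 2237 lower. A minimum mean of 5 FPKM gave 713 higher genes, from fewer genes tested. Against DMSO 3 alone 18 members and 1916 genes were higher.

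Limma-voom on recovered fragments, the replicate block and pseudocounts of 0.1 and 0.5 kept all 14 member calls. Median-of-ratios scaling lost 1 of the 14, removal of the GC trend 2, quantile normalization, removal of GC and length trends and the replicate block with the GC trend removed 3 each, and no filter 4. Against DMSO 3 alone 1 was lost. Libraries rescaled to equal sums gave 1620 genes higher and 1059 lower, so 60.5% of called genes were higher, against 46.8% in the deposited values, and the median of all genes lay at 0.136 instead of 0.035. Under that scaling the medians were 0.34 (membrane, sterol export and V-ATPase), 0.25 (core) and 0.54 (receptors). Removal of the GC trend, of GC and length trends, and the replicate block with the GC trend removed gave 0.13, 0.12 and 0.13 for the membrane group and 0.31, 0.30 and 0.31 for receptors. The core median was 0.08 under quantile normalization, 0.09 without GC and length trends and 0.09 against DMSO 3 alone, where hydrolases had -0.03, the TFEB family -0.04 and receptors 0.27. The TFEB family median was -0.36 to -0.10 when a library was left out. With the GC trend removed and a library left out, medians were 0.02 to 0.18 (membrane group), 0.08 to 0.13 (core) and, for receptors, 0.33, 0.29 and 0.32 without corilagin 1, 2 and 3 and 0.32, 0.31 and 0.32 without DMSO 1, 2 and 3.

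The sign of 12 of the 44 members turned against DMSO 3 alone and of 10 with the GC trend removed. Those also called in one of the fits compared were, against DMSO 3 alone, CTSB (0.24), LAMP1 (0.17), ATP6V0D1 (0.28) and ATG3 (-0.17) and, with the GC trend removed, ATG3. ATG3 had -0.33 with the GC trend removed, with GC and length trends removed and in the replicate block with the GC trend removed, and with that trend removed -0.34, -0.31 and -0.33 without corilagin 1, 2 and 3 and -0.29, -0.29 and -0.40 without DMSO 1, 2 and 3. By the same criterion, with the GC trend removed and without DMSO 3, CTSS (-0.14), LAMP2 (-0.33), MITF (-0.22) and ULK1 (0.14) were called with the other sign and LIPA (-0.04, adjusted p = 0.353), called in the deposited values, was not called. ATP6V0D1 (0.19) was called so without DMSO 1. The cause was not tested.

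The replicate block gave 1547 genes higher and 1330 lower. The fit to the values as deposited did not pair libraries by number. Deviations of same-numbered libraries correlated at 0.28, 0.0787 and 0.339. Each corilagin library had its highest correlation with the DMSO library of its own number, while DMSO 2 had its highest with corilagin 1 (0.279). Corilagin 1 had 0.28 with DMSO 1 and 0.279 with DMSO 2, and corilagin 2 had 0.0644 and 0.0787. Those values are too alike to tell DMSO 1 from DMSO 2 as a partner, so pairing cannot be judged from them.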
